A study of Mus musculus with 2 samples.

Results

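The cyclin and cyclin-dependent kinase (CDK) genes were described in CUT&Tag data for H4K12la, histone H4 lactylated at lysine 12, from Neuro2a cells, a mouse neuroblastoma line. The members are the protein-coding genes of a RefSeq gene table (GRCm38.p6, the assembly that mm10 names) whose symbols are Cdk followed by a digit, or begin with Ccna to Ccnl, Ccnt or Ccny. The rule found 53 of 21887 protein-coding genes. It uses symbols only, so it also takes in genes that share the name without being a cyclin or a kinase. By role, 15 members were placed in a cell cycle class, 14 in a transcriptional class, 15 among atypical and other cyclins and CDKs, and 9 among regulators and binding partners.

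CUT&Tag tethers a transposase to antibody-bound chromatin and sequences the DNA cut beside the mark. One group was treated with NaCl and the other with 25 mM lactate, with 1 library in each. Both came from unmodified Neuro2a cells grown in DMEM with serum on collagen-coated plates. How long the cells were treated, and at what NaCl concentration, is not given in the sources used here. With 1 library per group there is no replicate error and no test between the groups, and the intervals cover counting error alone. Each difference is one between these 2 libraries.

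Cyclins are proteins that bind and switch on CDKs. The cell cycle members drive growth and division: D-type cyclins with Cdk4 and Cdk6 act in G1, E-type and A-type cyclins with Cdk2 act at the start of and through DNA replication, and B-type cyclins with Cdk1 drive mitosis. The transcriptional members act on RNA polymerase II instead. Cdk7 with cyclin H belongs to the general factor TFIIH, Cdk9 with cyclin T releases paused polymerase, Cdk8 or Cdk19 with cyclin C joins the Mediator complex, and Cdk12 and Cdk13 with cyclin K support elongation. Cdk5, activated by Cdk5r1 or Cdk5r2, works mainly in neurons outside the cell cycle.

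Sequences before the start are shown for 6 members whose start lay under a called peak. Ccne1, Cdk2 and Ccnt1 had a gene-end peak with lactate only. So did others with a start under that peak that are not shown: Ccnyl1, Cdk10, Cdk13, Cdk16, Cdk5rap3 and Ccnd3. Ccng1 and Ccnf had the highest fold of peaks over a listed start in the NaCl and in the lactate library. Ccnt2 is shown beside its paralog Ccnt1. Each is the 250 bases before the RefSeq start, 5′ to 3′ on the gene's strand, from GRCm38.p6. Capitals mark a CCAAT box, a CHR element or an E2F site on either strand, as defined with the motif counts below.
Ccne1 (chr7:38107491-38107740, minus strand, cell cycle): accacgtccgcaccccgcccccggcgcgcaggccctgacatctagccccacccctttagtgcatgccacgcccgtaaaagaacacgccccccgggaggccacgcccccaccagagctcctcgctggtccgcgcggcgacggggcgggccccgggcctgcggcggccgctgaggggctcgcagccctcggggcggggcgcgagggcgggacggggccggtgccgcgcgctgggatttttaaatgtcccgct
Cdk2 (chr10:128705052-128705301, minus strand, cell cycle): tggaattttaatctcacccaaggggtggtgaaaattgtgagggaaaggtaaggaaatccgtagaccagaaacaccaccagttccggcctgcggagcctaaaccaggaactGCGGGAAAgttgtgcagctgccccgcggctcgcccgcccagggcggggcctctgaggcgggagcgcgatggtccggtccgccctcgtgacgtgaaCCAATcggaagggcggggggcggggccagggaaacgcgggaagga
Ccnt1 (chr15:98567737-98567986, minus strand, transcriptional): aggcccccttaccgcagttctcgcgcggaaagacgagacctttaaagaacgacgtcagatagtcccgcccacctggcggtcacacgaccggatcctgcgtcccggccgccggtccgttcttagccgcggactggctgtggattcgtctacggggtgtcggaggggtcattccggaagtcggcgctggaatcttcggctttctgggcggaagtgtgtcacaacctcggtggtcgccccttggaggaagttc
Ccng1 (chr11:40755287-40755536, minus strand, atypical and other): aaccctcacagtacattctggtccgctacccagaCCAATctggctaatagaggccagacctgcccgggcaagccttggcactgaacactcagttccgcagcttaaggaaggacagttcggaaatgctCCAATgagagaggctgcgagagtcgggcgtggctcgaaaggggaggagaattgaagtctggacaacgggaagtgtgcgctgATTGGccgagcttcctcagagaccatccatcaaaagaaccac
Ccnf (chr17:24251410-24251659, minus strand, cell cycle): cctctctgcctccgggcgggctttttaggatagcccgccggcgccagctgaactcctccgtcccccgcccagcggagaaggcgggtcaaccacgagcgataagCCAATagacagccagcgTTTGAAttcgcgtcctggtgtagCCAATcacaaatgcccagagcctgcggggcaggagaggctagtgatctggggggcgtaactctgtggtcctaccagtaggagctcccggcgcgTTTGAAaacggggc
Ccnt2 (chr1:127773914-127774163, plus strand, transcriptional): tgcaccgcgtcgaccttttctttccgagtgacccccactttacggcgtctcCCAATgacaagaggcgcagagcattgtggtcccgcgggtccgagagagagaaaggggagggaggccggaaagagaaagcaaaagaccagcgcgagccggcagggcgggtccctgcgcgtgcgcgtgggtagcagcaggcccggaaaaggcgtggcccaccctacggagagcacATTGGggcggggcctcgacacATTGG

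A MACS2 peak was credited to a gene end when at least 1 bp of it lay within 1 kb of either annotated end. A gene called in both libraries is termed shared, and one called in a single library lactate-only or NaCl-only. The deposited fold enrichment is the summit pileup over the local background, each plus 1 read. Solving it together with the deposited p-value gave back the summit reads and the local background. On the autosomes, X and Y the lists held 46592 NaCl and 39768 lactate peaks, the genome-wide background was 2.96 and 3.06 reads, and relative depth differed by 3.43%. The lowest summit of any called peak was 11 reads in both libraries, and calls needed more where the local background was higher. A Cdk7 lactate peak of 31 reads over a background of 13.8 reached a −log10 q of only 2.07, so a gene with no call may still carry signal. Of 13 neuroblastoma and neuron markers, 2 had gene-end peaks in both libraries, 3 only with lactate and 1 only with NaCl, while 7 had none (53.8%, against 51.9% of all genes), among them Th and Dbh. Of 10 markers of other cell types, 9 had none and Mbp had one in the lactate library. These are peaks of a histone mark and do not measure expression.

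Cyclin and CDK genes carried H4K12la at their ends in both libraries, and more of them in the lactate library. A gene-end peak was called at 26 of 53 members in the NaCl library (49.1%, against 32.0% of all protein-coding genes) and at 40 in the lactate library (75.5%, against 44.8%). All 26 NaCl genes were also called in the lactate library, so 26 members were shared (28.6% of all genes were). A further 14 were lactate-only (26.4%, against 16.2%), none were NaCl-only (against 3.34%) and 13 had no gene-end peak (24.5%, against 51.9%). At a −log10 q of at least 5, 8 members kept a peak in the NaCl library (15.1%, against 8.54% of all genes). In the lactate library 24 did (45.3%, against 24.1%). Ccnt1 alone of the 14 combined such a lactate peak with no NaCl peak at either end, where 4.25% of all genes did, and no member had the reverse (against 0.132%). The other 13 rest on peaks below that level.

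**Figure D1:**
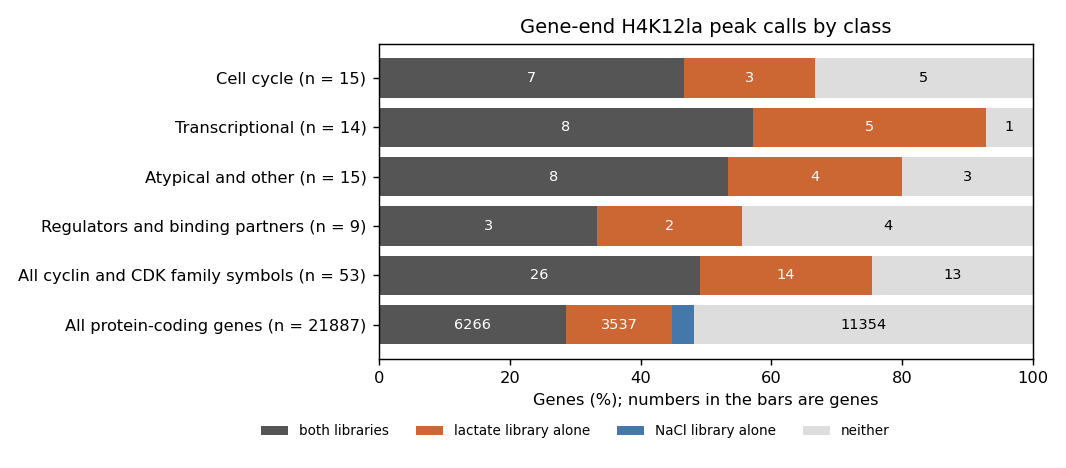
Share of genes (horizontal axis, percent) with a gene-end H4K12la peak that is shared by the libraries, lactate-only or NaCl-only, or with none, for each class of members, for all 53 members and for all 21887 protein-coding genes. Transcriptional members had 13 of 14 genes called in the lactate library and cell cycle members 10 of 15, against 44.8% of all genes. No member was NaCl-only, against 3.34% of all genes.

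Counts varied by class. In the lactate library 13 of 14 transcriptional members (92.9%) and 12 of 15 atypical and other members (80.0%) were called. So were 10 of 15 cell cycle members (66.7%) and 5 of 9 regulators (55.6%), against 44.8% of all genes. In the NaCl library the counts were 8 (57.1%), 8 (53.3%), 7 (46.7%) and 3 (33.3%), against 32.0% of all genes, to which the regulators were close. Lactate-only were 5 transcriptional, 4 atypical and other, 3 cell cycle and 2 regulator genes. Classes of this size differ by a few genes, and no test between them was made.

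Among the G1 members the mark was uneven. Cyclins D1 (Ccnd1) and D2 (Ccnd2), which bring growth signals to Cdk4 and Cdk6, had no peak in either library, neither at an end nor inside the gene. Cyclin D3 (Ccnd3) was lactate-only, with 18 summit reads (10.7–28.4) at chr17:47504979-47505090 and a −log10 q of 2.13. The RefSeq table of starts lists a second Ccnd3 start near the other end of the gene, and a lactate peak of 20 reads (12.2–30.9) lay over it at chr17:47593342-47593704. The NaCl library had its single Ccnd3 peak between them, with 15 reads (8.4–24.7), where the lactate library also had one with 27 reads (17.8–39.3).

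Cdk4, the kinase partner of the D cyclins, had a peak over its start in both libraries. It reached 27 summit reads in the NaCl library (17.8–39.3) at chr10:127063246-127063849 and 46 in the lactate library (33.7–61.4) at chr10:127063289-127063719. The intervals overlapped, and the fold was lower in the lactate library, at 3.31 against 3.69. Cdk6, its paralog, had no peak at either end or at its listed start.

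The E-type cyclins, which start DNA replication with Cdk2, split. Ccne1 was lactate-only, with 21 reads (13–32.1), a fold of 3.70 and a −log10 q of 4.63 at chr7:38107250-38107782. Cdk2 was likewise lactate-only, with 19 reads (11.4–29.7), a fold of 3.41 and a −log10 q of 3.65 at chr10:128704580-128705207. Both peaks lay over the start printed above, with the summit at 47 bp for Ccne1 and -65 bp for Cdk2, where a negative distance lies before the start. With the window widened to 3 kb, Ccne1 alone of the 3 lactate-only cell cycle members was still without a NaCl call.

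Ccne2 was shared and had the highest gene-end fold of any member in the NaCl library with the 1 kb window. That library had a pair of peaks there, one of 13 reads (6.92–22.2) at chr4:11190367-11190514 and one of 21 reads (13–32.1), with a fold of 5.56, at chr4:11191164-11191649. The lactate library had 1 peak of 1485 bp across both, at chr4:11190381-11191865, with 31 reads (21.1–44.0) and a fold of 3.76. With a window of 500 bp the NaCl value became that of the smaller peak, a fold of 3.54, and Ccng1 was highest with 5.20. At 1 kb the lactate summit held more reads at a lower fold. The local background, by which fold divides, was 2.46 times the genome-wide level there, against 1.0 in the NaCl library. How much of that background the wide peak's own reads supply was not tested.

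Cyclin A2 (Ccna2), which acts in S phase and on the way to mitosis, had 16 reads in the NaCl library (9.15–26) and 30 in the lactate library (20.2–42.8). Its peak, at chr3:36571749-36572389 in the lactate library, lay inside the gene and also within 1 kb of an end of Bbs7, so it cannot be credited to Ccna2 alone. Cyclin A1 (Ccna1), a germline cyclin, had no peak at all.

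The mitotic kinase and its B cyclins were called in both libraries, with more summit reads in the lactate library. Cdk1, the kinase of mitosis, had 24 reads in the NaCl library (15.4–35.7) at chr10:69352289-69352897 and 39 in the lactate library (27.7–53.3) at chr10:69352167-69353034. Cyclin B1 (Ccnb1), its main partner, had 23 reads (14.6–34.5) and 43 reads (31.1–57.9). Cyclin B2 (Ccnb2) had 15 reads (8.4–24.7) and 25 reads (16.2–36.9). Each pair of intervals overlapped, and the folds of the libraries were close, at 4.13 and 4.22 for Cdk1, 3.56 and 3.65 for Ccnb1, and 4.04 and 4.30 for Ccnb2. At the other end of Cdk1 the NaCl library had a weaker peak of 16 reads (9.15–26), with a −log10 q of 1.42. No lactate peak overlapped it.

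Cyclin F (Ccnf), an F-box protein that recruits a ubiquitin ligase rather than a CDK, had 14 reads in the NaCl library (7.65–23.5) and 24 in the lactate library (15.4–35.7). Its fold stood further apart than at the other mitotic genes, at 3.79 and 5.19. Cyclin B3 (Ccnb3), best known from meiosis, had no gene-end peak and 1 weak NaCl peak of 11 reads inside the gene.

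**Figure D2:**
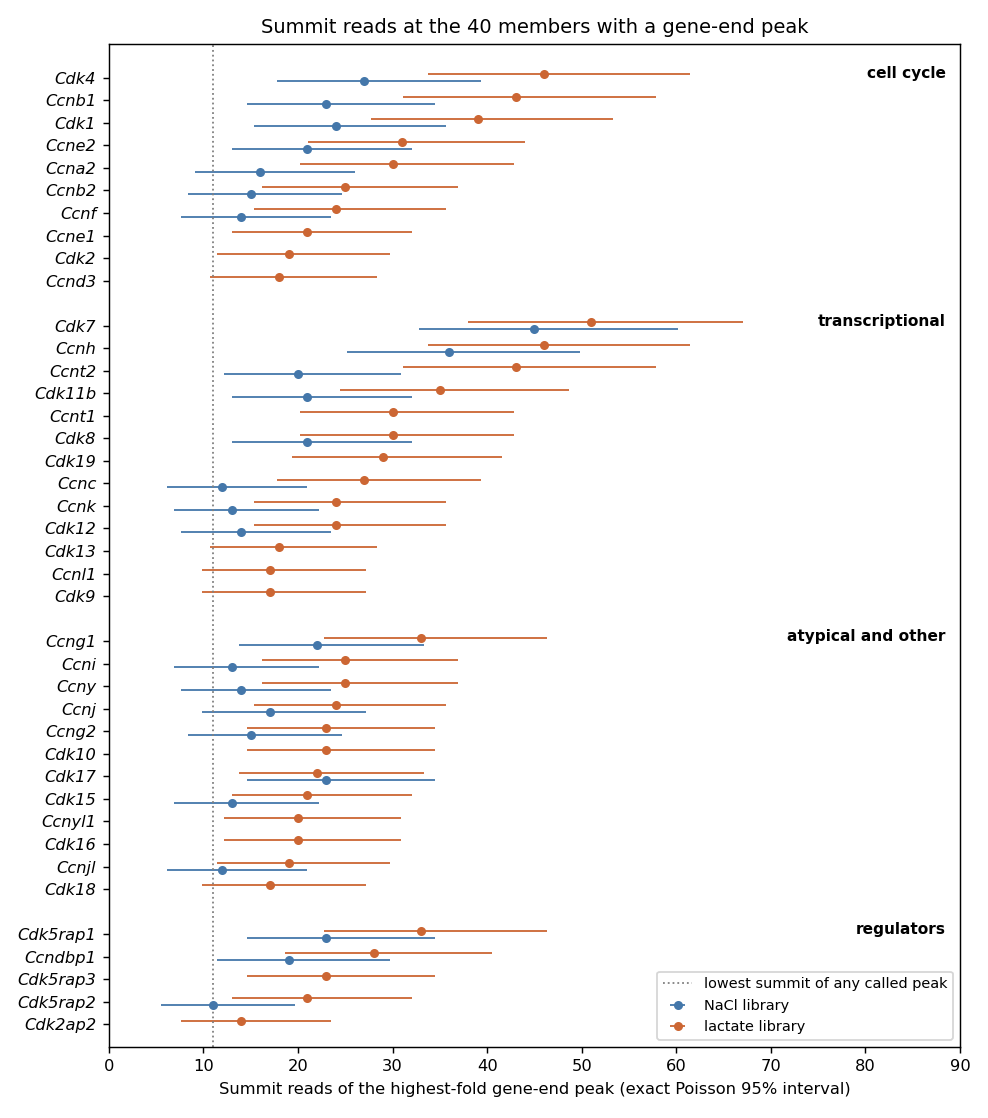
Summit reads of the highest-fold gene-end peak (horizontal axis, reads) in the NaCl and lactate libraries for the 40 members with a call, by class. Bars are exact Poisson 95% intervals and the dotted line is the lowest summit of any called peak, 11 reads. Of the 26 members with a point in both libraries, the intervals stand apart for Ccnt2 alone.

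Among the transcriptional members, the TFIIH pair had the highest gene-end summits of all members, in the lactate library level with Cdk4 for cyclin H. Cdk7 had 45 summit reads in the NaCl library (32.8–60.2) at chr13:100730717-100731229 and 51 in the lactate library (38.0–67.1) at chr13:100730619-100731214. Its partner cyclin H (Ccnh) had 36 reads (25.2–49.8) at chr13:85189240-85190014 and 46 reads (33.7–61.4) at chr13:85189154-85190157. The lactate counts were 1.13 and 1.28 times the NaCl counts, below the median ratio of 1.65 over the members called in both. These were also the only members whose gene-end peaks passed a −log10 q of 10 in both libraries.

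The pausing-release kinase differed in form. Cdk9 itself had 1 weak lactate peak of 17 reads (9.90–27.2), with a −log10 q of 1.83, its summit 607 bp inside the gene and its start not under the peak. Cyclin T2 (Ccnt2) was shared, with 20 reads in the NaCl library (12.2–30.9) at chr1:127773792-127774290 and 43 in the lactate library (31.1–57.9) at chr1:127773737-127774693. It was the single member of 26 whose intervals did not overlap, where 2.31% of all genes called in both stood apart this way. Cyclin T1 (Ccnt1), its paralog, had no NaCl peak at an end and 30 lactate reads (20.2–42.8), with a −log10 q of 5.43, at chr15:98567703-98568055. The NaCl library did have a peak of 17 reads inside Ccnt1.

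The Mediator kinase genes differed in their NaCl gene-end calls, though the NaCl intervals of cyclin C and Cdk8 overlapped. Cyclin C (Ccnc) had 12 reads in the NaCl library (6.20–21.0), 1 above the lowest summit of any call, and 27 in the lactate library (17.8–39.3), the highest ratio of any member at 2.25. Cdk8 had 21 reads (13–32.1) and 30 reads (20.2–42.8). Cdk19, the paralog of Cdk8, had no NaCl peak at an end and a lactate peak of 29 reads (19.4–41.6) with a −log10 q of 4.95.

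The elongation kinase genes followed the same order. Cdk12 had 14 reads in the NaCl library (7.65–23.5) and 24 in the lactate library (15.4–35.7), and its partner cyclin K (Ccnk) had 13 (6.92–22.2) and 24 (15.4–35.7). The Ccnk peak also met the window of the neighbouring gene Setd3. Cdk13, the paralog of Cdk12, was lactate-only, with 18 reads (10.7–28.4) and a −log10 q of 3.56, its summit at -23 bp.

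Cdk11b and the L-type cyclins act in transcription and splicing. Cdk11b had 21 reads in the NaCl library (13–32.1) and 35 in the lactate library (24.4–48.7). For cyclins L1 and L2 the annotated gene reaches beyond the listed start, so the peaks over that start counted as lying inside the gene. Over the Ccnl1 start the NaCl library had 21 reads (13–32.1) at chr3:65958100-65958702 and the lactate library 41 (29.4–55.6) at chr3:65957500-65958707. The lactate-only call of Ccnl1 rests instead on a peak of 17 reads beyond its 3′ end. Over the Ccnl2 start the counts were 22 (13.8–33.3) and 28 (18.6–40.5), and Ccnl2 was the single transcriptional member without a gene-end call.

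Among the atypical and other members, cyclin G1 (Ccng1), a target of p53, had 22 reads in the NaCl library (13.8–33.3) and 33 in the lactate library (22.7–46.3), with folds of 5.20 and 4.97. Cyclin Y (Ccny), a membrane-bound partner of Cdk14 and Cdk16, had the highest gene-end fold of any member in the lactate library, 5.58, beside 3.79 in the NaCl library, with 25 reads (16.2–36.9) and 14 reads (7.65–23.5). Cdk15 had folds of 3.54 and 4.87, and Ccnj, a cyclin of little-known function, 4.55 and 4.79. Ccng2, Ccni and Ccnjl were shared, with 12 to 15 NaCl and 19 to 25 lactate reads, and the Ccni peaks also met the window of 2010109A12Rik. At Cdk17 the highest-fold peaks lay at opposite ends of the gene, with 23 NaCl reads at the higher-coordinate end and 22 lactate reads at the other. At the higher-coordinate end, where both libraries had a peak, the counts were 23 and 24. Ccnyl1, Cdk10, Cdk16 and Cdk18 were lactate-only, with 17 to 23 reads and −log10 q from 2.21 to 4.45.

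The neuronal kinase Cdk5 and both of its activators, Cdk5r1 and Cdk5r2, had no peak at an end or inside the gene in either library. Cdk20, a kinase linked to cilia, and Ccnb1ip1, which acts in meiotic recombination, had none either. With Ccnd1, Ccnd2 and Ccna1 these make 8 members without any peak, or 15.1%, against 37.6% of all protein-coding genes. Cdk14 had no gene-end peak but peaks inside the gene in both libraries, and Cdk2ap1 had 1 lactate peak inside the gene.

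Among the Cdk5-binding proteins, Cdk5rap1, a tRNA-modifying enzyme, had 23 reads in the NaCl library (14.6–34.5) and 33 in the lactate library (22.7–46.3). Cdk5rap2, a centrosome protein, had 11 (5.49–19.7) and 21 (13–32.1), and its NaCl call was lost when both lists were given the same length. Ccndbp1, which binds cyclin D1, had 19 (11.4–29.7) and 28 (18.6–40.5) in a window shared with Tmem62. Cdk5rap3 and Cdk2ap2 were lactate-only, with 23 and 14 reads.

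The RefSeq table of starts held 43 of the 53 members, with 46 starts, and gave their strand. Not listed were Ccna2, Ccne2, Cdk5, Ccnd2, Ccnd1, Cdk19, Cdk17, Cdk5r1, Ccnh and Ccny. Within 1 kb of a listed start, 23 of the 43 had a peak in the NaCl library (53.5%, against 33.0% of all genes with a start) and 35 in the lactate library (81.4%, against 46.7%). Of these, 23 were shared (53.5%, against 30.4%), 12 lactate-only (27.9%, against 16.4%) and none NaCl-only (against 2.69%). All 12 transcriptional members with a start were called there in the lactate library and 9 in the NaCl library, beside 8 and 5 of 11 cell cycle members. The start base itself lay under a peak at 18 of the 43 members in the NaCl library (41.9%, against 18.9% of all genes with a start). In the lactate library it did at 30 (69.8%, against 34.1%).

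Gene-end peaks of members with a listed start lay mostly at that start. The highest-fold gene-end summit lay within 1 kb of a start at all 21 NaCl members that had both, and at 33 of 34 lactate members, the exception being Ccnl1. Within 250 bp were 16 and 24. The median absolute distance was 129 bp in both libraries, with summits on either side of the start. Downstream of the nearest listed start lay 15 of 34 in the lactate library and 10 of 21 in the NaCl library. Those of the lactate library include Ccnl1, whose summit lay beyond the 3′ end of the gene.

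**Figure D3:**
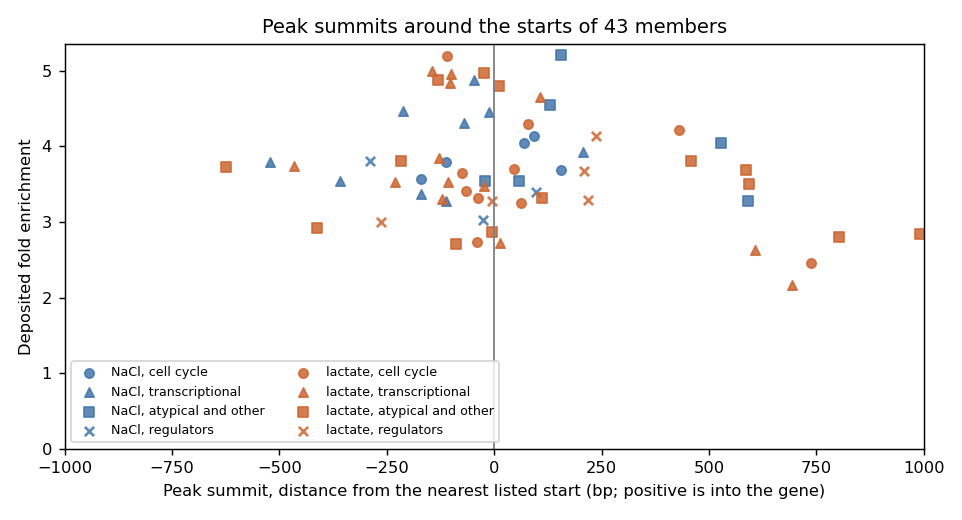
Distance of each peak summit from the nearest listed start (horizontal axis, bp, positive into the gene) against its deposited fold (vertical axis), for peaks of 43 members within 1 kb of a start. Colour gives the library and shape the class. Most summits lie within 250 bp on either side of the start in both libraries.

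At the 26 members called in both libraries, summit reads and local background were higher in the lactate library while fold was not uniformly so. Summit reads had a median of 18.0 in the NaCl library and 27.5 in the lactate library. They were higher in the lactate library at 25 members (96.2%, against 94.5% of all genes called in both). The remaining one was Cdk17, whose highest-fold peaks lay at different ends. Fold had medians of 3.80 and 3.99 and was higher in the lactate library at 17 members (65.4%, against 52.5% of all genes). The lactate peak was the wider one at 23 members (84.3% of all genes), with median widths of 396 bp and 643 bp. In 24 of the 26 the highest-fold peaks of the libraries overlapped, Ccni and Cdk17 being the exceptions (90.3% of all genes called in both overlapped).

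The local background stood at a median of 1.91 times the genome-wide level in the lactate library and 1.0 in the NaCl library. It was higher in the lactate library at 25 of 26 members (96.2%, against 95.3% of all genes). The exception, Cdk17, compares opposite gene ends; where its peaks overlapped the values were 2.63 with lactate and 2.10 with NaCl. MACS2 never takes it below the genome-wide level, at which 14 members stood in the NaCl library and none in the lactate library, so their true difference may be larger. Above that level it moved in steps of 0.02, which is what 1 read extended to 200 bp adds over a 10 kb window. Read that way, the 10 kb around the Cdk4 summit held 329 reads in the NaCl library (294–367) and 660 in the lactate library (611–712). At Ccnb1 the counts were 287 (255–322) and 552 (507–600). At Cdk7 they were 467 (426–511) and 686 (636–739), and at Ccnt2 185 (159–214) and 390 (352–431). At these 4 genes the intervals lay apart and the lactate library held 1.94, 1.86, 1.42 and 2.04 times the NaCl level relative to each library's genome-wide background. Fold at Cdk4 and Cdk7 was lower in the lactate library all the same, since fold divides by this background. A 10 kb window around a summit takes in the peak's own reads, so summit reads and local background are not separate measures. How much the peak itself adds was not tested. Because all genes called in both showed a median ratio of 1.59 and the members 1.63, the higher background was not particular to the members.

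**Figure D4:**
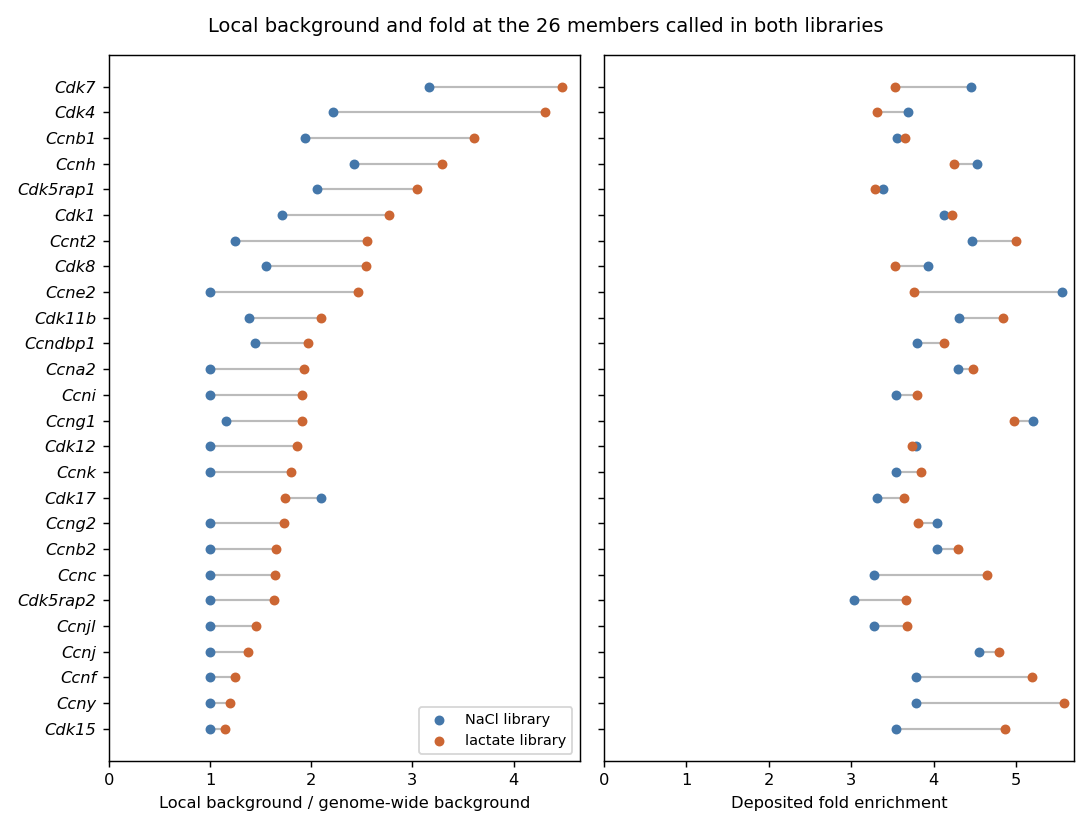
Local background as a multiple of the genome-wide background (left) and deposited fold enrichment (right) of the highest-fold gene-end peak, in the NaCl and lactate libraries, for the 26 members called in both, ordered by lactate background. Background is higher in the lactate library at every member but Cdk17, whose points come from opposite gene ends, while fold is higher at 17 of 26.

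Away from their ends, 23 members had a peak inside the gene in the NaCl library (43.4%, against 28.7% of all genes) and 19 in the lactate library (35.8%, against 31.2%). These were 48 and 50 peaks. The order of the libraries turned at a −log10 q of at least 5, with 8 NaCl and 11 lactate members, and lists of equal length gave 20 and 19. The 25 members with such a peak in either library had a median length of 34.6 kb and the others 8.88 kb. Of the NaCl inside peaks 25 overlapped a lactate peak (52.1%, against 38.8% over all genes), and of the lactate inside peaks 24 overlapped a NaCl peak (48.0%, against 37.8%). For the gene-end peaks these shares were 92.9% of 28 NaCl peaks (against 81.3%) and 49.0% of 51 lactate peaks (against 52.5%).

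Some inside peaks were higher than any gene-end peak of the members. A fold of at least 5 was reached by 7 of 48 inside peaks in the NaCl library (against 4.60% over all genes). In the lactate library 6 of 50 reached it (against 3.64%). Cdk8 had the highest, a fold of 12.2 in both libraries, with 71 reads in the NaCl library (55.5–89.6) at chr5:146260907-146261389 and 93 in the lactate library (75.1–114) at chr5:146260877-146261378. It ranked 30 among 16207 NaCl and 27 among 16310 lactate inside peaks of all genes. Ccnf had a narrow peak with 45 NaCl reads (32.8–60.2) at chr17:24240323-24240587 and 38 lactate reads (26.9–52.2) at chr17:24240345-24240584. Its fold was 8.78 and 6.46, against 3.79 and 5.19 at the start of the same gene.

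Other inside peaks with a fold of at least 5 overlapped a peak of the other library, with a like fold at 4 genes and a lower lactate fold at Cdk6. Cdk5rap2 had folds of 6.70 and 7.33, Cdk5rap1 5.78 and 5.24, and Cdk14 5.56 and 5.66. Cdk17 had 6.08 and 6.07 at a peak that also met an end window of the neighbouring gene Elk3. At Cdk6, the NaCl library had 4 peaks across chr5:3435889-3438522, the highest with 55 reads (41.4–71.6) and a fold of 5.29, and the lactate library 2 peaks across chr5:3435951-3438586, the higher with 46 reads (33.7–61.4) and a fold of 3.87. These lay about the middle of the gene, and the local background there was already 3.14 to 3.65 times the genome-wide level in both libraries. At Ccnd3 the libraries differed in number, with 6 inside peaks in the lactate library and 1 in the NaCl library. No filter for repeated sequence was applied, and its part in the inside peaks was not tested.

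**Figure D5:**
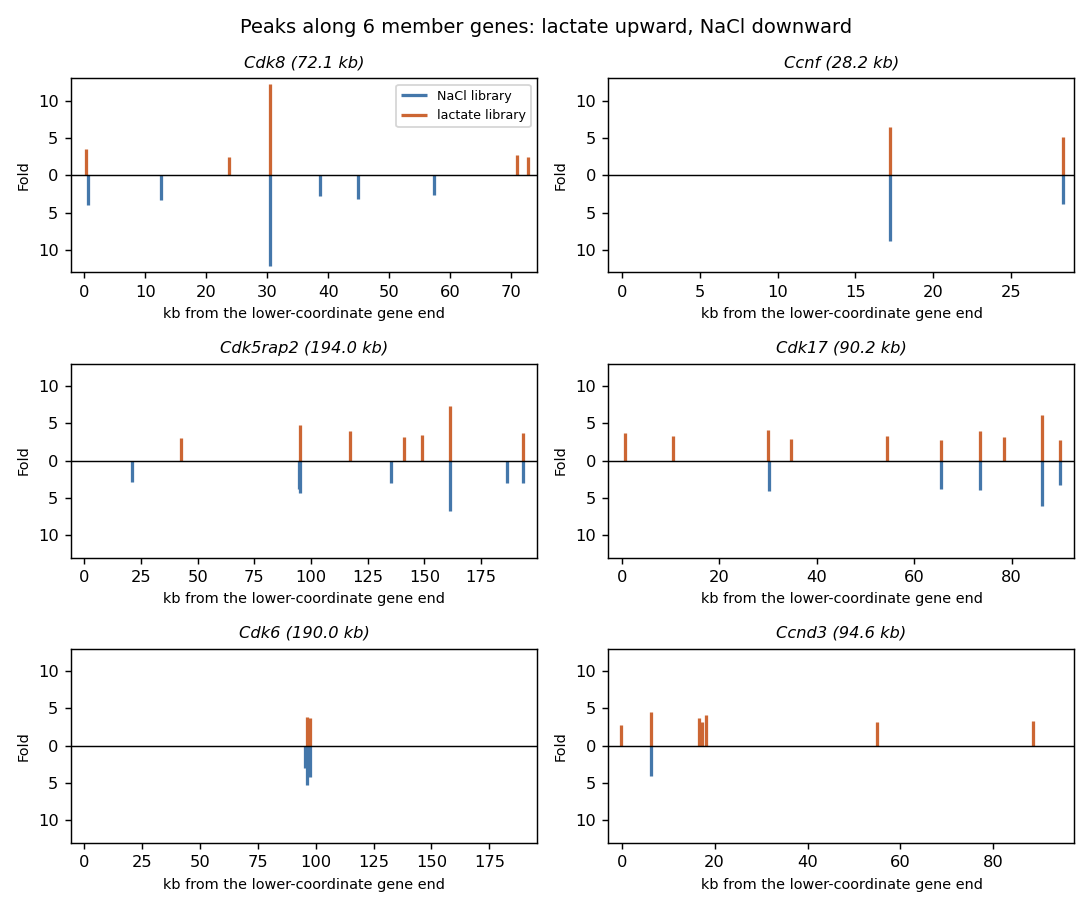
Peaks along 6 member genes, with distance from the lower-coordinate gene end (horizontal axis, kb) and deposited fold (vertical axis, lactate upward and NaCl downward). Cdk8 has 1 peak with a fold of 12.2 in both libraries at the same place, Cdk6 has its peaks in 1 cluster mid-gene, and Ccnd3 has 7 peaks in the lactate library and 1 in the NaCl library.

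In the 250 bases before the start, 3 motifs were counted on both strands, and no matches overlapped within a window. The 46 member windows belong to 43 genes. Those of Cdk5rap3 overlap each other, so some of its CCAAT boxes were counted in both. The CCAAT box (CCAAT), bound by the factor NF-Y, was found in 23 of 46 member windows and in 35.4% of 21263 windows of all protein-coding genes. The CHR element (TTTGAA), known from promoters active late in the cell cycle, was found in 6 member windows (13%, against 14.5%). Of these, 3 belong to Cdk1, Ccnb2 and Ccnf, the others to Cdk5rap1, Ccni and Cdk16, and none to a transcriptional member. Ccnb1 had no CHR element in its window. E2F sites, written as TTTCCCGC, TTTCGCGC, TTTGCCGC or TTTGGCGC, were found at Cdk1 and Cdk2 alone (4.35%, against 2.35%). The Cdk2 site begins at -140 bp, and its CCAAT box at -45 bp, both in the lactate-only promoter printed above. Ccnf carries CCAAT boxes at -147 and -107 bp and CHR elements at -130 and -14 bp. In the sequences printed for Ccne1 and Ccnt1 none of these letters occur, which says nothing about the factors themselves. Nor do they stand for the lactate-only members not printed. Of those with a start under the peak, Ccnyl1, Cdk10, Cdk16 and Cdk5rap3 had a CCAAT box. Ccnd3 had one before its second start alone, and Cdk13 had no motif.

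Partners of these genes were counted the same way. Of 33 cell cycle partners (CDK inhibitors, the retinoblastoma and E2F families, and regulators of CDK activity), 16 had shared gene-end peaks (48.5%, against 28.6% of all genes), 14 were lactate-only (42.4%, against 16.2%), none were NaCl-only and 3 had no gene-end peak (9.09%, against 51.9%). Without a gene-end call were the CDK inhibitors Cdkn1a, Cdkn1c and Cdkn2b. Cdkn1a had 3 lactate peaks and no NaCl peak inside the gene, and Cdkn1c and Cdkn2b had none there. The lactate-only partners with the highest fold were the CDK inhibitors Cdkn2c, with 22 reads (13.8–33.3), and Cdkn2d, also with 22, the mitotic exit factor Cdc20, with 19 (11.4–29.7), and Rb1, with 15 (8.4–24.7). Called in both, E2f5 had 16 and 26 reads and Cks2, a CDK-binding subunit, 14 and 23, the NaCl peak of Cks2 also meeting the window of Secisbp2. Of 21 transcription partners, 9 were shared (42.9%), 8 lactate-only (38.1%), Ell2 NaCl-only and 3 without a gene-end peak (14.3%). Of these 3, Hexim2 and Med12l had peaks inside the gene and Nelfe had none. Lactate-only were the Mediator kinase-module genes Med13, with 21 reads (13–32.1), and Med13l, with 18 (10.7–28.4), and the elongation factor genes Supt5 and Supt4a, with 22 and 15. Aff4, a scaffold that brings Cdk9 to polymerase, had 21 reads in the NaCl library (13–32.1) and 33 in the lactate library (22.7–46.3), and Nelfcd, a pausing factor subunit, 20 and 25.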

How the data were processed

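The tools named in the submitters' processing notes are BWA, deepTools and MACS2, with mm10 as the build. Versions, settings and any control library are not stated there. From each library the authors deposited 1 MACS2 peak list that gives, for each peak, a fold (a ratio to local background), a −log10 p and −log10 q, and a score that is 10 times the −log10 q. These are the authors' values for each peak.

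Only peaks on the autosomes, X and Y were used. Whole-number summit reads and the local background were solved from fold and p, with a tolerance of 0.001 in −log10 p, for 46591 of 46592 NaCl and all 39768 lactate peaks. The solving and gene-end crediting steps were run on simulated peaks built with the same formulas and windows. That checks the code alone, not whether the deposited values follow those formulas. Intervals are exact Poisson at 95%. A gene's value is its highest-fold peak within 1 kb of an annotated end. Inside peaks touch the gene but neither end window.

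Every member is accounted for. Values are given for lactate-only or NaCl-only members with a −log10 q of at least 5, the 5 highest folds per library, the main cyclins and CDKs, and up to 4 one-library and 2 shared genes of each partner list. Other members' values were added after they were seen. Members and lists were chosen with earlier results of these data known. Alternatives were stricter q thresholds, lists of equal length, other windows, starts alone, summits alone and unshared peaks. Python 3.11.15, numpy 2.4.6, pandas 2.3.3, scipy 1.17.1 and matplotlib 3.10.9 were used.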

Additional observations from a re-analysis of the deposited data

How the results depend on the processing

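The order of the libraries held under every alternative run: more members had gene-end peaks in the lactate than in the NaCl library. The same order held over all protein-coding genes under each of these settings, so it was not particular to the members. Of all genes called in a single library, 82.9% were lactate-only in the main count. This share was 94.7% at a −log10 q of at least 5 and 94.0% at 10. It was lowest with windows of 3 kb, at 77.5%. Stricter thresholds lowered the counts of members per library, but not always those of the lactate library alone. At a −log10 q of at least 5, members with gene-end peaks numbered 8 in the NaCl library, 24 in the lactate library and 8 in both, with 3 cell cycle and 4 transcriptional members in both and inside peaks at 8 and 11 members, the reverse of the order without it. At this threshold 16 were called in the lactate library alone, of which 1 was among the 14 without it, with 4 cell cycle and 5 transcriptional members. At 10 they numbered 2, 6 and 2, with 4 in the lactate library alone. Of these, 0 cell cycle and 2 transcriptional members were called in both, and 1 and 2 in the lactate library alone. A lactate peak of at least 5 with no NaCl peak, an alternative added after seeing the data, left 1 member, Ccnt1. With windows of 3 kb, 1 cell cycle member was called in the lactate library alone. At listed starts alone, which cover 43 members, 3 transcriptional members were. Requiring the summit in the window made 1 member, the cell cycle gene Ccne2, NaCl-only. The fewer calls per library under stricter thresholds follow from fewer peaks kept; for the others, the cause was not tested. Lists of equal length, 500 bp windows and unshared peaks left each count within 1.5 times. Of 62 highest folds with a 500 bp window all stayed within counting error, as did 54 of 55 at starts alone. With the 500 bp window that of Ccne2 in the NaCl library still went from 5.56 to 3.54. No paired analysis was possible because each group has 1 library. Depth limits all calls to summits of at least 11 reads, and of more where the local background is higher.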

Other observations

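Some genes named like the members lie outside the rule: cyclin-like genes with other letters (Ccno, Ccnq, Cntd1), the CDK-like kinases and the tRNA-modifying enzyme Cdkal1. Ccno, Cntd1, Cdkal1 and Cdkl1 had a gene-end peak with lactate only, with 15, 18, 17 and 14 summit reads. Cdkl3 was also lactate-only and had the highest summit of the genes named here, with 31 reads (21.1–44.0) and a −log10 q of 6.36. Cdkl2, whose product is a kinase of the brain, was shared, with 17 reads in the NaCl library (9.90–27.2) and 25 in the lactate library (16.2–36.9). Ccnq was called with NaCl only, at 13 reads (6.92–22.2). At the ends of Cdkl4 neither library had a peak. These genes were chosen after the data were seen.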
